A study of Mus musculus with 166 samples.

Results

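Mir191 and Mir425 form a small microRNA cluster on mouse chromosome 9, and the measurements here follow this locus through the cerebellum of the Htt CAG knock-in allelic series. Members were sought as the rows of the cerebellum count table whose transcript ID maps in the GENCODE M21 annotation to either gene, and 1 of the 1626 rows did so: Mir425. No row mapped to Mir191. The single row lying over the Mir191 hairpin was Gm24083, a transcript annotated on the opposite strand, and its values are given as those of Gm24083 throughout. The cluster was chosen from earlier results of these data, in which Mir425 was among the larger falls in Q175 cerebellum at 10 months. The 10-month comparison of Q175 with controls is therefore described without a test. Other tests that use the control libraries of that age share them with that comparison, so they are not independent of the choice.

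The 166 libraries came from mice of both sexes on the C57BL/6 background at 2, 6 and 10 months of age (2m, 6m and 10m). The knock-in mice were heterozygous, with 1 wild-type Htt allele and 1 allele with human HTT exon 1 and the CAG repeat for which the line is named: Q175, Q140, Q111, Q92, Q80 or Q20. WT mice, with no knock-in allele, were littermates of the Q20 line. Q20 and WT served together as controls, and the Q175 line arose from Q140 by spontaneous expansion of the repeat. Each group held 8 libraries, except Q140 and Q111 at 10m with 7. The labels number the libraries as replicates within each line, age and sex, and the study names 4 females and 4 males a group, so the spread below is between mice. By the labels, the sexes were not 4 and 4 in Q20, Q140 and Q111 at 10m or in Q80 at 2m. The tissue is whole cerebellum, in which fewer cells of a type and less RNA per cell cannot be told apart.

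MicroRNAs are cut from hairpin precursors, and the 7 bases from position 2 to 8 of the mature strand, the seed, set most of the pairing with target messages. Mir191 and Mir425 are transcribed in the same direction and are thought to share a primary transcript. In humans they lie within DALRD3, which encodes a protein used in tRNA modification. miR-191 is abundant in many tissues and has often served as a reference in microRNA assays. Mir425 is the less abundant partner in most tissues.

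The mature sequences are shown because the table counts whole hairpins and does not separate the arms. They come from RefSeq (GRCm38.p6), 5′ to 3′, with the seed in capitals.
mmu-miR-191-5p: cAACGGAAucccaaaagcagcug
mmu-miR-191-3p: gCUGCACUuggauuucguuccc
mmu-miR-425-5p: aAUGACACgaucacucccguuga
mmu-miR-425-3p: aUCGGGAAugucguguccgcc
No seed was shared between the 4 strands. Of the 1738 mature mouse sequences searched, miR-489-3p had the seed of miR-425-5p, and no other mature sequence had the seed of the other 3 strands.

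In GENCODE M21 (GRCm38), the Mir191 hairpin lies at chr9:108568319-108568392 on the plus strand (74 bases) and the Mir425 hairpin at chr9:108568777-108568861 on the plus strand (85 bases), with 384 bases between them. Both fall within an exon of the long noncoding RNA 4833445I07Rik, which spans 108567533 to 108569174 on the plus strand. In a second transcript of that gene, Mir191 lies in the intron between the exons that end at 108568180 and start at 108568484. RefSeq places both hairpins inside Dalrd3 (108567484 to 108572773), whereas GENCODE starts Dalrd3 at 108569886, after both.

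Gm24083 covers chr9:108568295-108568414 on the minus strand (120 bases). Its sequence is shown because it decides what the row can hold: the capitals mark the reverse complement of the whole Mir191 hairpin, from position 23 to 96, and below it stands the Mir191 hairpin with its mature arms in capitals.
Gm24083: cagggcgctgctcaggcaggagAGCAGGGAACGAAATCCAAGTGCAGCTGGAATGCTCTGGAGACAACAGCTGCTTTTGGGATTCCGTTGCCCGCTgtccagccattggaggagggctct
Mir191: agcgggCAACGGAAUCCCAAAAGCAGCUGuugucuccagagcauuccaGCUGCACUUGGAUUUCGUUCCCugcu
Mir425: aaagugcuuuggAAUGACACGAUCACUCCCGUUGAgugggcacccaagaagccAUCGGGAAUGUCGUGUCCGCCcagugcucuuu
The sequencing was strand-specific, but the sources used here do not say whether the counting used strand, so reads of Mir191 and of its antisense partner cannot be told apart in this row. Of the annotated hairpin pairs that overlap on opposite strands, 32 had 1 row in the table and 0 had both. Counts of Mir425 and Gm24083 were whole numbers in every library, and neither shared a run of 18 bases with any of the 1227 hairpins of the table that have a GENCODE sequence and were compared.

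Total counts ran between 3094703 and 6188935 per library. Following the study's rule on standardized connectivity, 9 libraries that stood apart from the others of their age were left out of the values and tests below (8 at 2m and 1 at 10m), and 451 rows passed the filter on low counts. Levels are CPM, counts scaled to the size of the library after TMM normalization, and a row was called at an adjusted p below 0.05. At 6m all WT and Q175 libraries carried another leading number in their library names than every other library, here called the library series. With a series term in the fit, Q175 at 6m was set against WT, and the other 6m lines against Q20. The labels do not say what that number stands for.

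Both rows were well counted. Mir425 held between 900 and 1969 reads in the 166 libraries (median 1371) and ranked 122 of 1626 rows by counts. Gm24083 held between 38849 and 88247 reads (median 52859), ranked 18 and took 1.24% of all counts. Per length, the deposited RPKM were 2430 for Mir425 and 65636 for Gm24083 (medians over the libraries of both library series, whose RPKM scales differ). The only other row within 200 kb was Gm26298, with a mean of 0.193 reads.

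Mir425 was lower in Q175 than in WT cerebellum at 6m. Its level was 246, 273 and 297 CPM (lowest, median, highest) in the 8 Q175 libraries, against 290, 321 and 352 CPM in the 8 WT libraries. All but 1 of the Q175 libraries lay below the lowest WT library, and 7 WT libraries lay above the highest Q175 library. The difference was -0.21 ± 0.04 on the log2 scale (SE), with an adjusted p of 4.72e-05 in edgeR's quasi-likelihood test, where 18.6% of the 451 rows were called. No alternative ended this call (adjusted p between 1.6e-07 and 0.00347), nor did leaving out any single library of Q175, WT or Q20 (1.55e-05 to 0.000268). As every 6m library had been kept, the alternative with all libraries was the same fit.

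At 2m the groups overlapped. Mir425 was at 268, 284 and 320 CPM in 8 Q175 libraries, against 269, 304 and 322 CPM in 7 Q20 libraries and 287, 291 and 307 CPM in 6 WT libraries. Only 1 Q175 library lay below the lowest control. The difference was -0.04 ± 0.04 with an adjusted p of 0.888, and 0.222% of rows were called at this age.

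At 10m, the comparison on which the cluster was chosen, the groups did not overlap. Mir425 was at 237, 263 and 280 CPM in 8 Q175 libraries, against 316, 344 and 384 CPM in 7 Q20 libraries and 290, 324 and 359 CPM in 8 WT libraries. Every Q175 library was below every control library, and the fitted difference was -0.35 ± 0.04. In this contrast 25.1% of rows were called, and nothing is read from that share because the contrast chose the member.

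**Figure D1:**
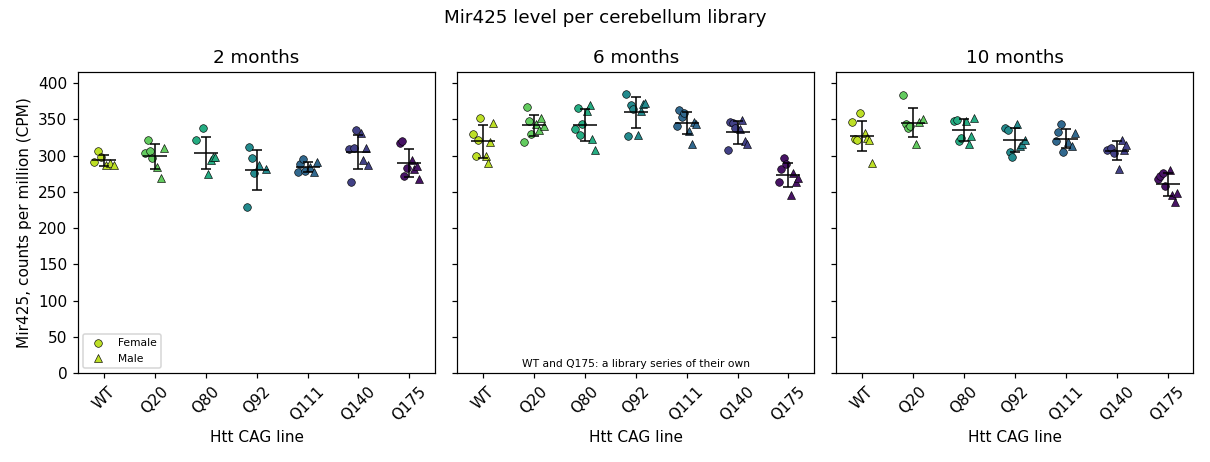
Mir425 level in CPM (y axis) in each kept library, by Htt line (x axis) and age (panels), with females as circles, males as triangles, and bars for the mean and SD of each group. The Q175 libraries sit between 246 and 297 CPM at 6m and between 237 and 280 CPM at 10m, whereas at 2m they lie among the other lines.

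Whether the Q175 difference itself changed with age was tested as a contrast of the 2m and 6m means, in 1 fit with a mean for each line and age. The 10m libraries were in this fit and shared in its estimate of the spread, but not in the contrast. Q175 minus WT was -0.23 ± 0.04 at 6m and -0.02 ± 0.04 at 2m. The change between these ages was -0.21 ± 0.06 for Mir425, with an adjusted p of 0.0225, while 3.99% of rows were called. WT shares the library series of Q175 at each age, so a series shift common to both lines drops out. The series of both lines changed between 2m and 6m, however. A series effect that differs between Q175 and WT therefore cannot be told apart from age here. The call was lost without any one of Q175 2m F1, WT 2m M4, WT 6m F4 and WT 6m M4 (adjusted p of 0.0585, 0.0597, 0.0538 and 0.0587), and under 4 alternatives (0.0565 to 0.15). For Gm24083 the same change was -0.07 ± 0.07 with an adjusted p of 0.729.

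Gm24083 was called in Q175 cerebellum at neither 2m nor 6m. At 6m it was at 11650, 12801 and 13435 CPM in Q175, against 12295, 13296 and 14127 CPM in WT. The groups overlapped, with 3 of 8 Q175 libraries below the lowest WT library, and the difference was -0.06 ± 0.04 (adjusted p = 0.386). Without the series term it was 0.03 ± 0.04.

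At 2m Gm24083 was at 10916, 11932 and 13383 CPM in Q175, against 11570, 11756 and 14178 CPM in Q20 and 10453, 11992 and 13401 CPM in WT. No Q175 library was below the lowest control, and the difference was -0.02 ± 0.04 (adjusted p = 0.967). Its sign depended on the scaling: with library totals alone the value was 0.0025.

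At 10m, again as a description, Gm24083 was at 10798, 11422 and 12481 CPM in Q175, against 12037, 12748 and 15241 CPM in Q20 and 12180, 12944 and 16353 CPM in WT. All but 1 of the 8 Q175 libraries lay below the lowest control. The fitted difference was -0.19 ± 0.04.

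**Figure D2:**
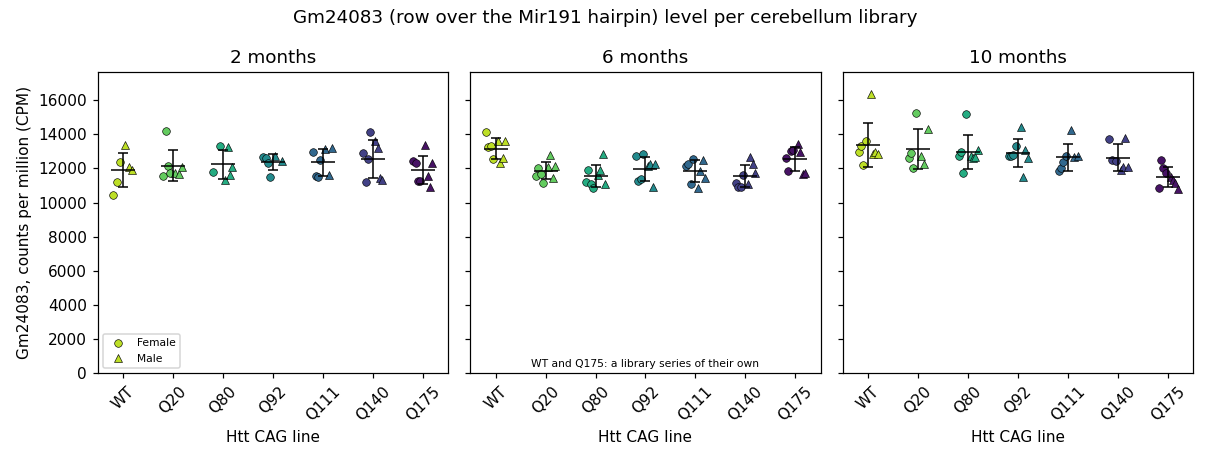
Level of Gm24083, the row over the Mir191 hairpin, in CPM (y axis) in each kept library, by Htt line (x axis) and age (panels), with females as circles, males as triangles, and bars for the mean and SD. The lines overlap at 2m and 6m, and at 10m the Q175 libraries lie between 10798 and 12481 CPM, at the lower end of all lines.

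The shorter expansions gave 1 call in 12 tests for Mir425 and none for Gm24083. For Mir425, Q140, Q111, Q92 and Q80 against controls at the 3 ages ranged between -0.13 and 0.08, and 3 of the 12 tests had an unadjusted p under 0.05. DESeq2 also called 1. For Gm24083 the range was -0.08 to 0.06, no unadjusted p was under 0.05, and DESeq2 called 0. In 10 of these 12 contrasts edgeR called 0% of rows (12 to 37 rows had an unadjusted p under 0.05, and DESeq2 called at most 1), and for Q111 at 6m it called 0.443%.

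At 6m Mir425 was at 308, 338 and 349 CPM in Q140, against 319, 343 and 367 CPM in Q20, with overlapping ranges and a difference of -0.03 ± 0.04 (adjusted p = 0.914). The lowest value at 2m was -0.10 ± 0.04 in Q92 and the highest at 6m was 0.08 ± 0.04 in Q92, with adjusted p of 0.701 and 0.729.

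The call was Q140 at 10m, where 4.21% of rows were called. It used the same 10m controls as the contrast that chose the cluster, so it was not independent of that choice. Mir425 was at 281, 308 and 321 CPM in 7 Q140 libraries, against 316, 344 and 384 CPM in 7 Q20 libraries and 290, 324 and 359 CPM in 8 WT libraries. All 7 Q140 libraries were below the control median of 338 CPM, but only 1 was below the lowest control. The difference was -0.13 ± 0.04 with an adjusted p of 0.0473. This call ended without the filter on low counts (0.204), with all libraries kept (0.061), with the replicate block (0.0946) and with a lane term (0.0557). It held in 7 of the 22 fits that left out 1 Q140 or control library (adjusted p 0.0278 to 0.113): those without Q140 M2, Q20 M1, or WT F1, F2, F3, M3 or M4.

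Gm24083 at 10m was at 11886, 12428 and 13775 CPM in Q140, and its difference of -0.08 ± 0.05 was not called (adjusted p = 0.415). With 6m and 10m combined by Stouffer's method, 7.54% of rows were called for Q140. Mir425 had an adjusted p of 0.0906 there (mean log2 difference -0.08) and Gm24083 0.447 (-0.05). Under 5 alternatives the Mir425 value passed, with adjusted p between 0.0148 and 0.0348.

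**Figure D3:**
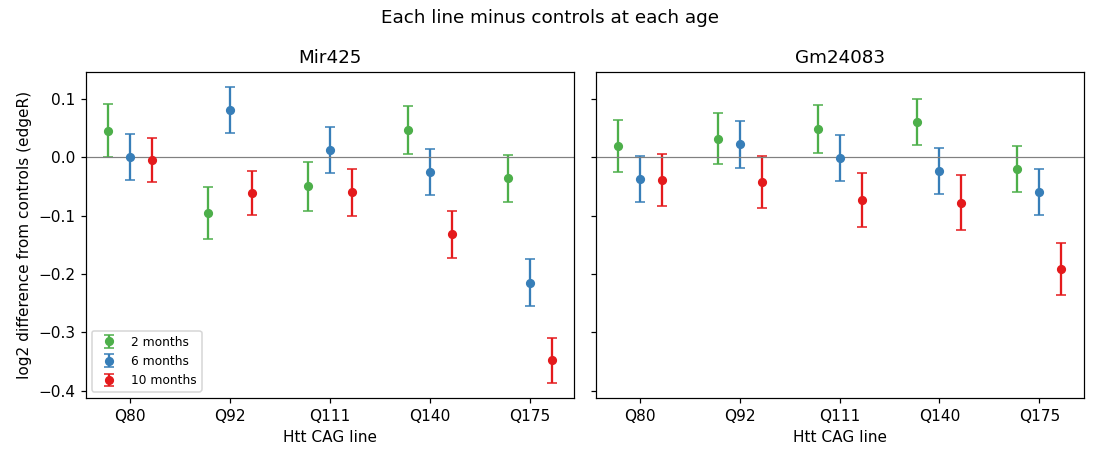
Log2 difference between each Htt line (x axis) and controls, with its SE, from the fit at each age (colours), for Mir425 (left) and Gm24083 (right). Mir425 in Q175 is at -0.04, -0.21 and -0.35 at 2m, 6m and 10m, and Gm24083 is at -0.02, -0.06 and -0.19; the Q175 values at 10m chose the cluster and carry no test.

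As a slope on CAG length, with WT at 7 repeats, Mir425 changed by -0.09 ± 0.02 log2 units per 100 CAG at 6m (adjusted p = 0.0022, where 16.4% of rows were called). This slope rested on Q175 and WT. It was -0.01 ± 0.03 in the lines Q20 to Q140 alone (adjusted p = 0.988), and without a series term it was -0.09 ± 0.03 (0.0602). At 2m the slope was -0.01 ± 0.02 (adjusted p = 0.945, 0.222% of rows called). At 10m without Q175 it was -0.08 ± 0.03, which did not pass (adjusted p = 0.128, 0.443% of rows called). The slopes of Gm24083 were 0.01 ± 0.02 at 2m (adjusted p = 0.945), -0.03 ± 0.02 at 6m (0.438) and -0.06 ± 0.03 at 10m without Q175 (0.358).

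No difference between the control lines or between the sexes was called for either row. For Q20 against WT, edgeR and DESeq2 called 0% of rows at 2m and at 10m (8 and 24 rows had an unadjusted p under 0.05). Mir425 differed by -0.0011 ± 0.05 at 2m and 0.08 ± 0.04 at 10m, and Gm24083 by 0.01 ± 0.05 and -0.02 ± 0.05. Mir425 was 0.06 ± 0.03, 0.05 ± 0.02 and 0.03 ± 0.02 higher in females than in males at 2m, 6m and 10m. These values were called at 0 of 3 ages by edgeR and by DESeq2 (adjusted p = 0.296, 0.337 and 0.875), with an unadjusted p under 0.05 at 2 of 3. At the 3 ages 1.77%, 1.55% and 1.77% of rows were called for sex. Gm24083 differed by no more than -0.01 ± 0.03 between the sexes, with 0 calls by either tool and no unadjusted p under 0.05. The Q175 difference of Mir425 at 6m, females minus males, was 0.08 ± 0.08 on the log2 scale and was not called (adjusted p = 1).

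Both rows differed between ages, in different ways. The libraries at 10m and 2m carried different lane numbers, so age and lane cannot be told apart between these ages. In controls, Mir425 was 0.18 ± 0.03 higher at 10m than at 2m (adjusted p = 2.29e-07) and Gm24083 was 0.14 ± 0.04 higher (0.000435), while 48.3% of rows were called. With library totals the Gm24083 value was 0.22, and in the deposited RPKM 0.23. WT libraries held 290, 324 and 359 CPM of Mir425 at 10m, against 287, 291 and 307 CPM at 2m, and the ranges overlapped at the low end. In Q175, given without a test, Mir425 at 10m was -0.16 ± 0.04 relative to 2m and Gm24083 was -0.05 ± 0.05.

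Over the lines Q20, Q80, Q92, Q111 and Q140, which lie in 1 library series at all ages, Mir425 rose by 0.23 ± 0.02 at 6m relative to 2m (adjusted p = 3.43e-21, 66.3% of rows called). It was positive in each of the 5 lines, between 0.12 in Q140 and 0.37 in Q92. At 10m it was -0.08 ± 0.02 relative to 6m (adjusted p = 0.000365, 41.5% of rows called), with line values between 0.01 in Q20 and -0.16 in Q92. Gm24083 took the opposite course: it was -0.07 ± 0.02 at 6m relative to 2m (adjusted p = 0.00423) and 0.13 ± 0.02 at 10m relative to 6m (1.36e-07). Its earlier fall was not found with library totals alone (0.0073, adjusted p = 0.755) or in the deposited RPKM (0.0023, 0.918), whereas its later rise and both Mir425 changes held under every scaling run. Of the 40 libraries of these lines at 6m, 20 carried a lane number also found at 2m, and 0 of the 38 at 10m carried one found at 2m or 6m. The lane number and the age of 10m therefore cannot be told apart. A lane number found at both 2m and 6m need not be the same lane. Some libraries of these ages shared both the lane number and the LB tag in their names, and the labels do not explain the tag. The part of the lane in the difference of 6m from 2m was not tested, and age and lane may not be separable there. WT, whose 6m libraries lie in the other series, did not show the same course. Its Gm24083 means were 11900, 13169 and 13376 CPM at 2m, 6m and 10m, and its Mir425 means 294, 320 and 327 CPM. For WT at 6m, age and library series cannot be told apart.

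**Figure D4:**
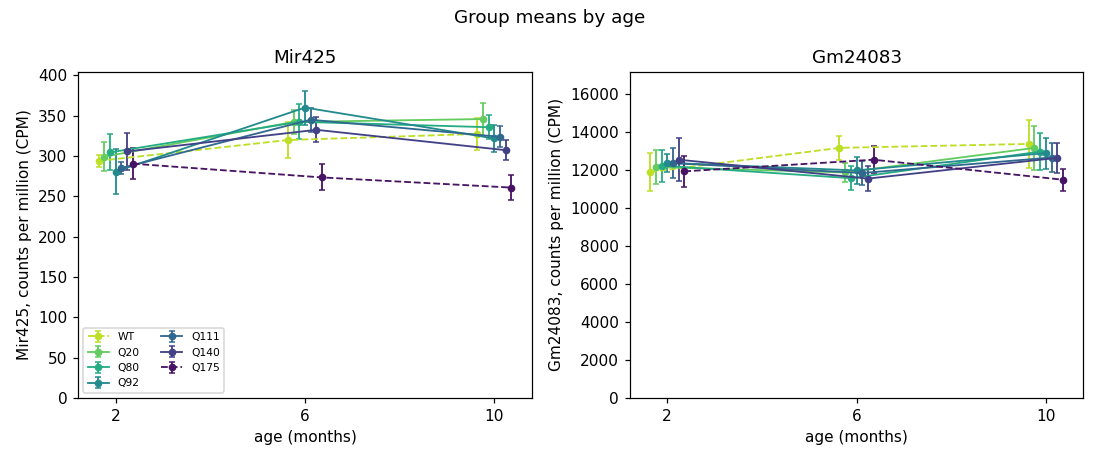
Group means with SD (n = 6 to 8 libraries) of Mir425 (left) and Gm24083 (right) in CPM (y axis) against age in months (x axis); dashed lines mark Q175 and WT, whose 6m libraries form a series of their own. In the 5 lines drawn solid, Mir425 is 0.23 log2 units higher at 6m than at 2m on average, while the Q175 mean is lower at each later age.

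The ratio of the 2 counts within a library needs no scaling between libraries. In the same 5 lines the log2 ratio of Mir425 to Gm24083 was higher at 6m than at 2m in 5 of 5 lines, by 0.23 ± 0.04 in Q20 to 0.41 ± 0.08 in Q92 (two-sided exact permutation tests, adjusted p of 0.00286 or lower over 10 tests). It was lower at 10m than at 6m in 5 of 5 lines, between -0.13 ± 0.06 in Q20 (adjusted exact p = 0.0497) and -0.27 ± 0.05 in Q92 (0.000932). The lane limits given above hold for the ratio too. Lines of the same age shared lane numbers, so the 5 lines are not independent checks of a difference between ages. As a percentage, the Mir425 count was 2.89% ± 0.16 of the Gm24083 count in Q20 at 6m (SD, n = 8), against 2.46% ± 0.13 at 2m (SD, n = 7). In WT, with its 6m libraries in the other series, the mean percentage was 2.49%, 2.43% and 2.46% at 2m, 6m and 10m, without a rise at 6m. The ratio between ages was not tested in WT.

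Between lines, the ratio was less clear. In Q175 at 6m the Mir425 count was 2.18% ± 0.17 of the Gm24083 count, against 2.43% ± 0.19 in WT (SD, n = 8 each). The log2 difference was -0.15 ± 0.06 with an exact permutation p of 0.0115, which did not pass after adjustment over the 14 ratio tests (adjusted p = 0.161). At 10m, without a test, the log2 difference in Q175 against controls was -0.16 ± 0.05. The other ratio tests had adjusted p of 0.317 or higher, with Q92 at 2m at -0.13 ± 0.07 and Q111 at 2m at -0.10 ± 0.05. Mir425 was thus called in Q175 at 6m and Gm24083 was not, but the difference between the rows did not pass its own test.

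**Figure D5:**
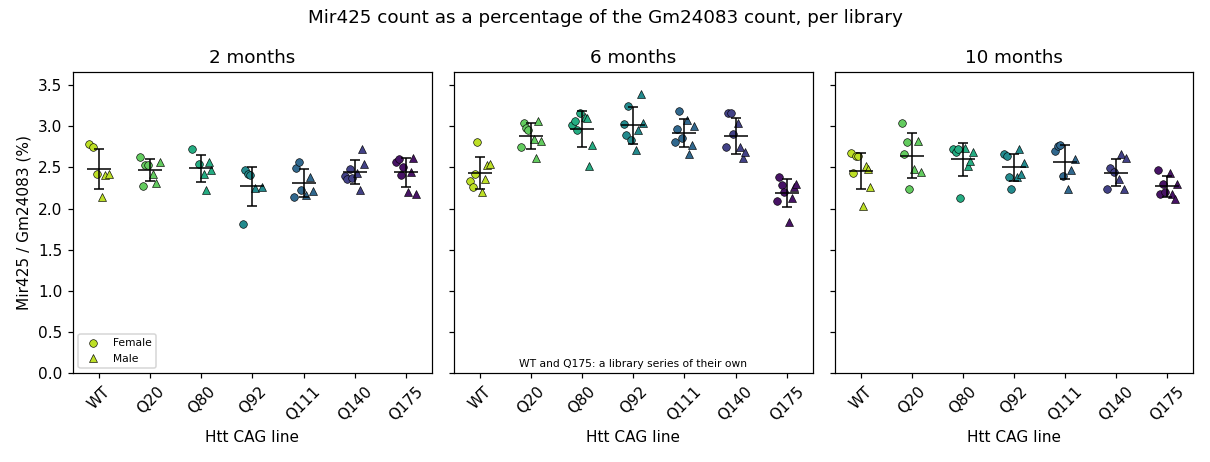
Mir425 count as a percentage of the Gm24083 count (y axis) in each kept library, by Htt line (x axis) and age (panels), with females as circles, males as triangles, and bars for the mean and SD. The lines Q20 to Q140 average between 2.89% and 3.01% at 6m, above their 2m and 10m means, whereas Q175 and WT, which form another library series at 6m, average 2.18% and 2.43%.

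Ordered by mean level over the 21 groups of line and age, Mir425 ran between 261 ± 16 CPM in Q175 at 10m and 360 ± 21 CPM in Q92 at 6m (SD, n = 8 each). Q175 at 6m was next to the lowest with 273 ± 16 CPM. Gm24083 ran between 11490 ± 578 CPM in Q175 at 10m and 13376 ± 1270 CPM in WT at 10m. No 2 neighbours in either order differed by more than the larger of their SDs (largest gap 0.783 SD for Mir425 and 0.417 SD for Gm24083).

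Between mice of the same line, the correlation of the rows passed the test at 2m and not at 6m or 10m, and the difference between ages was not tested. After the line means were subtracted, Pearson's r of log2 CPM was 0.376 over 48 libraries at 2m (permutation p = 0.00856, adjusted over 3 ages 0.0257), and Spearman's rho was 0.317 (adjusted p = 0.0855). Without the 2 libraries farthest from the median of Gm24083, r was 0.351, and within lanes it was 0.453. With library totals in place of TMM, r was 0.232 (permutation p = 0.112). At 6m r was 0.142 and rho 0.187 over 56 libraries (adjusted permutation p = 0.294 and 0.165; r = 0.219 without the 2 farthest). Within library series at 6m, r was 0.086 in the 16 libraries of Q175 and WT and 0.171 in the 40 of the other lines. At 10m r was 0.163 and rho 0.217 over 53 libraries (adjusted permutation p = 0.294 and 0.165), and r was 0.216 without the 2 farthest.

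The rows most like Mir425 over the 157 libraries, after the mean of each age and library series was subtracted, were Mir212 (r = 0.654), Mir132 (0.632), Mir344-2 (0.614), Mir23b (0.557) and Mir129-1 (0.497). Mir132 and Mir212 are the neuronal activity-regulated pair of a single locus. All 5 were called lower in Q175 at 6m, where 6.87% of all rows were, and nothing is read from this because the likeness itself holds that difference: they fell by -0.52 (Mir212, adjusted p = 6.61e-09), -0.45 (Mir132, 8.3e-10), -0.58 (Mir344-2, 5.93e-15), -0.12 (Mir23b, 0.0208) and -0.14 (Mir129-1, 0.0197). Mir344-2 and Mir129-1, like Mir26a-2, Mirlet7a-1 and Mir30c-1 below, have close relatives elsewhere in the genome. The counting may not have fully separated the reads of such relatives, so the values of these rows are uncertain. Shared sequence was checked only for Mir425 and Gm24083, and not for the other rows named here. These correlations are descriptions, and all rows share the libraries and their scaling. For Gm24083 the most alike were Mir26a-2 (0.649), Mir186 (0.608), Mir320 (0.541), Mir23b (0.54) and Mir30d (0.522). Mir26a-2, Mir186 and Mir320 are on the list of assay references below. Gm24083 and Mir425 had r = 0.426, which ranked 11 of 450 for Mir425 and 12 for Gm24083. This value keeps the differences between lines, including Q175 at 10m, on which the cluster was chosen, so nothing is read from the rank. With line means subtracted, r was 0.376 at 2m, 0.142 at 6m and 0.163 at 10m.

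The Mir425 change in Q175 at 6m was set beside 2 lists of other microRNAs. Of the microRNAs commonly used as assay references, 17 of 18 were tested, 0 rose and 2 fell, where 11.8% of all 451 rows rose and 6.87% fell: Mir320 by -0.17 ± 0.04 (adjusted p = 0.00173) and Mirlet7a-1 by -0.15 (0.0163). Mir361 was at 0.08 (0.074). The list's median was -0.03, against 0.00301 over all 451 rows. Of the microRNAs within broadly expressed host genes, all 33 were tested, 3 rose and 2 fell, shares near those of all rows, with a median of -0.01. Mir98 fell by -0.23 ± 0.06 (adjusted p = 0.00392), while Mir30c-1 rose by 0.21 (0.0243) and Mir342 by 0.14 (0.0253).

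Cell type markers were counted in Q175 at 6m against the same shares of all rows, 11.8% higher and 6.87% lower. Of the neuronal microRNAs, 12 of 15 were tested, 3 rose and 5 fell, and their summed level was 27100 to 30600 CPM in Q175 against 26500 to 31400 CPM in WT. Microglia and immune microRNAs (6 of 8 tested, 1 fell) summed to 3230 to 3540 CPM in Q175 against 3540 to 3760 CPM in WT, and oligodendrocyte microRNAs (3 of 4 tested, 1 fell) to 3040 to 3440 CPM against 3120 to 3940 CPM. Vascular microRNAs (3 of 5 tested, 1 fell) summed to 12900 to 17500 CPM in Q175 against 14100 to 19100 CPM in WT. None of the tested choroid plexus (6), erythroid (3) or hindbrain (3) microRNAs was called, and their sums were 15800 to 23800, 19600 to 22400 and 761 to 2020 CPM in Q175 against 15400 to 22700, 21400 to 28700 and 1170 to 1780 CPM in WT. The choroid plexus sum was mostly Mir204, the erythroid sum mostly Mir486 and the oligodendrocyte sum mostly Mir338. The means of these rows over the kept libraries were 18300, 19000 and 3360 CPM by library totals. All 4 tested epithelial microRNAs rose, at very low levels: their sum was 1.19, 9.77 and 110 CPM in Q175 (lowest, median, highest) against 1.7, 3.16 and 5.78 CPM in WT, and 6 of the 8 Q175 libraries lay above the highest WT library. Mir1912 was at 0 reads in 41 of 157 libraries, and Mir196a-1, Mir196a-2 and Mir196b in 120, 139 and 95. The part of these markers in the Mir425 difference was not tested.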

How the data were processed

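RNA of mouse cerebellum was extracted with Qiagen miRNeasy kits, sequenced on an Illumina HiSeq instrument (strand-specific, single-end), aligned with STAR to mm10 and counted with HTSeq, per the study. CASAVA 1.8.2 is listed in the notes of the submitters. The authors deposited an expected count per transcript and library, some of them not whole, which were rounded here. The authors also deposited RPKM, scaled by length and by a library size that was not always the total of the counts. Its scale differed between the library series: Gm24083 at 12683 CPM by library total was 105690 RPKM in Q175 6m F1, whereas 11838 CPM was 62767 RPKM in Q111 10m F1. Transcript IDs were matched to GENCODE M21 (1228 of 1626 rows). Counts of the 451 rows passing filterByExpr over all libraries were fitted within each age in edgeR 4.0.16 (R 4.3.3; TMM, glmQLFit and glmQLFTest, with line, sex and library series as terms), Q20 and WT pooled as controls, and p adjusted by Benjamini-Hochberg over all rows. Libraries with standardized connectivity below -5 (variance-stabilized counts, DESeq2 1.42.0) were left out. Age contrasts came from 1 fit over 157 libraries with a mean for each line and age and a sex term. Ratios were tested by exact permutation of libraries (scipy 1.17.1), correlations with 100000 permutations and likeness on log2(CPM + 0.5). Alternatives used DESeq2, limma 3.58.1 on log2(RPKM + 1) and log2(RPKM + 0.1), other scalings, filters, libraries and terms. The fitting code was tested on simulated data. Members, lists and tests were chosen with earlier results of these data known. The named rows were the 5 most alike to each member, up to 3 of each list with the lowest adjusted p, and neighbours within 200 kb. The planned tests assumed a Mir191 row; they were run on Gm24083 instead. The change of the Q175 difference between 2m and 6m and the ratio between ages were added after the data were seen.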

Additional observations from a re-analysis of the deposited data

Results flagged for a closer look

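The Mir425 difference between Q175 and WT differed between ages, by -0.21 ± 0.06 log2 units at 6m relative to 2m (edgeR interaction, adjusted p = 0.0225). The contrast used the 2m and 6m means, while the 10m libraries, on which the cluster was chosen, shared in the estimate of the spread.

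Among the 63 sets of 6 to 8 libraries examined (each of the 21 groups for Mir425, Gm24083 and their ratio), 7 had 1 library whose gap to its nearest neighbour was large for the range of its group; chance gives such a gap in about 1 of 20. None concerned the Mir425 level itself. For Gm24083, the highest library was Q111 10m M1 at 14246 CPM (next 12744), Q20 2m F2 at 14178 CPM (next 12135), Q80 10m F4 at 15215 CPM (next 13108) and WT 10m M1 at 16353 CPM (next 13589), and the lowest was Q92 2m F4 at 11491 CPM (next 12302). For the Mir425 count as a percentage of the Gm24083 count, the lowest library was Q80 10m F4 at 2.13% (next 2.52%) and Q92 2m F1 at 1.81% (next 2.25%).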

How the results depend on the processing

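The Mir425 fall in Q175 at 6m kept its call in all 11 alternatives (-0.25 to -0.19) and in the 24 fits without 1 library (-0.24 to -0.19). As every 6m library had been kept, the alternative with all libraries was the same fit. With the series term the contrast rests on WT, so leaving out a Q20 library bears little on it. The 10m value of Mir425 in Q175, untested, lay between -0.38 and -0.31 (without 1 library -0.36 to -0.32). For Mir425 the single-library ranges were -0.05 to -0.02 at 2m, -0.15 to -0.11 for Q140 at 10m and -0.23 to -0.19 for the change between 2m and 6m. For Gm24083 they were -0.08 to -0.04 at 6m, -0.21 to -0.17 at 10m, -0.10 to -0.05 for Q140 at 10m, -0.11 to -0.04 for the change between 2m and 6m and -0.045 to 0.00061 at 2m, the last value without Q20 2m F2. The ratio in Q175 at 6m lay between -0.17 and -0.12.

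Calls of Mir425 ended for Q140 at 10m without the filter (-0.12, so 0 calls in 12), with all libraries (-0.12, 0 calls), with the replicate block (-0.14, 0 calls) and with lanes (-0.14, 0 calls). They ended for the change between 2m and 6m with library totals (-0.20), no filter (-0.20), log2(RPKM + 1) (-0.20) and log2(RPKM + 0.1) (-0.20), and for the 6m slope without the series term (-0.085) and in Q20 to Q140 alone (-0.0093). The combined Q140 value passed with DESeq2 (-0.087), RLE (-0.087), library totals (-0.10) and both RPKM settings (-0.11 and -0.11). The 2m correlation did not pass with library totals (0.232). Q175 calls at 6m numbered 84, against 54 without the filter, which tests more rows, and 174 without the series term; leaving out 1 library gave 67 to 84. The cause of the other changes was not tested.

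Signs turned for uncalled values near 0. For Gm24083 in Q175 at 2m the value was 0.0025 with library totals, 0.00068 with either RPKM setting and 0.012 with lanes, and at 6m 0.027 without the series term. For Q20 against WT, Gm24083 was -0.0010 at 2m and 0.0051 at 10m with library totals, and -0.0024 and 0.011 with either RPKM setting; Mir425 at 2m was 0.0077 without the filter and 0.0085 with all libraries. The Gm24083 slope at 2m was -0.0039 with all libraries. One called value turned: Gm24083 at 6m against 2m, 0.0073 with library totals and 0.0023 with either RPKM setting.

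The replicate block, with numbers within sex in place of sex, ended no call but Q140 at 10m. The labels do not say that numbers pair mice, and same-numbered Q175 and WT libraries at 6m had correlations of their deviations between -0.309 and 0.286 over 8 pairs. The sex comparison could not be fitted with the block, since the numbers lie within sex.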
